A study of Homo sapiens with 8 samples.

Results

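Peaks of p53 binding were examined at 6 genes through which p53 restrains cell division, other than CDKN1A (p21): BTG2, GDF15, PLK3, PLK2, SFN and GADD45A. The members were the peaks of 4 deposited ChIP-seq peak lists that overlapped a window holding the gene and about 10 kb on each side of it, in the hg18 build of the human genome. The windows were 22 to 27 kb long and 149 kb in all, and 44 of the 24535 deposited peaks fell in them. Of these, 27 came from Nutlin-3-treated cells, 10 from DMSO-treated cells, 6 from doxorubicin-treated cells and 1 from untreated cells.

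The cells were U2OS, a human osteosarcoma line whose own p53 gene is wild type according to the labels. Cells were left untreated, or received Nutlin-3 at 10 µM, doxorubicin at 0.6 µg/ml or DMSO at 0.1%, with 24 h given for each condition. Chromatin was precipitated with the p53 antibody DO-1. Untreated cells are labelled as the control of doxorubicin, which poisons topoisomerase II and breaks DNA, and the solvent DMSO as that of Nutlin-3, which blocks the binding of MDM2 to p53. Each condition had 1 ChIP library and 1 input, so no difference between conditions could be tested and no p-value is given. Each list gives positions only, and the reads behind a peak are unknown. The lists held 496 (untreated), 2793 (DMSO), 3087 (doxorubicin) and 18159 (Nutlin-3) peaks, so a count per gene cannot be told apart from the length of its list. As a share of its list, the windows held 0.202% of untreated, 0.358% of DMSO, 0.194% of doxorubicin and 0.149% of Nutlin-3 peaks. By share DMSO was thus highest and Nutlin-3 lowest. Every width was a multiple of 20 bp, and the smallest was 40 bp.

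The p53 protein binds DNA as a tetramer and switches on genes that stop the cell cycle when cells are stressed. MDM2 normally marks p53 for destruction, so both DNA damage and MDM2 inhibitors let p53 build up. BTG2 is an antiproliferative protein of the BTG/TOB family that acts with the CCR4-NOT complex in mRNA decay, and GDF15 is a secreted cytokine of the TGF-beta superfamily. PLK3 and PLK2 are polo-like kinases induced by stress. SFN (stratifin) keeps cyclin B complexes in the cytoplasm and so holds cells before mitosis, and GADD45A is a small stress-induced protein that inhibits the cyclin B kinase and takes part in DNA repair.

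The p53 response element is a pair of copies of a 10-base motif. It was searched in the 300 bases around each gene start (250 before to 50 after) given by RefSeq for GRCh38.p14, which held 5 of the 6 genes and not GADD45A. Coordinates were not converted between builds, so a promoter was set beside hg18 peaks by its gene alone. The 20 bases that best fit the element, with the motif copies side by side, are shown because the peaks of BTG2, GDF15 and PLK3 described below lay near the gene start. Capitals mark letters that fit the element and lower case those that do not.
BTG2: GGGaAAGTCCGGGCAgagCC
GDF15: AGcCATGCCCGGGCAAGaaC
PLK3: tAGCAAaTCCAGGCAgcgCC
PLK2: tGGCggGaCaAGACTTGCTT
SFN: GccCAcGCCCAGAtTTcTCC
The GDF15 match had 3 misfits and lay 28 to 47 bases after the first base of the gene, counted as 0. Of the 35116 promoters in the table, 5.20% held a match with 3 or fewer misfits. The BTG2 match had 4 misfits and spanned the start, from -14 to 5, and 26.0% of promoters did as well. The matches of PLK3, PLK2 and SFN had 5 misfits each, which 70.5% of promoters reached. PLK2 also held 1 exact copy of the 10-base motif, as did 6.63% of promoters. The motif reads the same on both strands, so both were covered. These are matches of letters, not measured sites.

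The 250 bases before the start of BTG2, GDF15 and PLK3, which had peaks at or near it, are given next. PLK2 and SFN, left out here, also had peaks not far from the start, which lies about 10 to 11 kb from the window edge. Among them were a DMSO peak at PLK2 (9.56 kb) and a Nutlin-3 peak at SFN (9.28 kb). GADD45A also had Nutlin-3 peaks about where a gene starts, 10.5 and 10.9 kb from the window edge, but no promoter was given for it. Capitals mark the core of the motif, searched as CNNG with A or T for each N.
GDF15, chr19:18385908-18386157, plus strand: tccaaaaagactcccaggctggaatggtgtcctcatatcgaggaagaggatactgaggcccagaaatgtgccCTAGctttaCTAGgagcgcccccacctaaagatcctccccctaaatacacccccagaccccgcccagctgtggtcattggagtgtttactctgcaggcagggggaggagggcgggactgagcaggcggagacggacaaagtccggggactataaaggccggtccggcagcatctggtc
BTG2, chr1:203305269-203305518, plus strand: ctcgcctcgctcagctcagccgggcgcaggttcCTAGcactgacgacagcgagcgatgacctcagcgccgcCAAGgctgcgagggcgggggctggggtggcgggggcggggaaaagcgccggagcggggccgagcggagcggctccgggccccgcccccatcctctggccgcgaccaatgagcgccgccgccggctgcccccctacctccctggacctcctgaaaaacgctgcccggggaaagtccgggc
PLK3, chr1:44800127-44800376, plus strand: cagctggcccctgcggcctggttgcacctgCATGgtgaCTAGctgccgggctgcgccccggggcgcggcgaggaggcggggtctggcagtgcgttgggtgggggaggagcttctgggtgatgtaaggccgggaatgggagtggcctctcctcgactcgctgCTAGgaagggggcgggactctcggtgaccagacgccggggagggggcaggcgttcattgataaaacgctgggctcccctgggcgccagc
GDF15 and BTG2 each held 2 cores and PLK3 held 3. The median over the 35116 promoters was 3 cores, and 92.8% held at least 1, so the core alone set none of these promoters apart.

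Across the 6 genes, every window held at least 1 peak in the doxorubicin and the Nutlin-3 lists, 5 held a DMSO peak and 1 held an untreated peak. For scale, the genome was cut into 119159 tiles of 25 kb. Of these, 2.16% held a doxorubicin peak, 11.1% a Nutlin-3 peak, 2.08% a DMSO peak and 0.294% an untreated peak. Peaks of DMSO, doxorubicin and Nutlin-3 occurred together in 5 of the 6 windows and in 1.21% of tiles. Both treatments were listed in all 6 windows and in 1.91% of tiles. The windows are centred on genes known as p53 targets, and the tiles lie anywhere, with or without a gene.

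**Figure D1:**
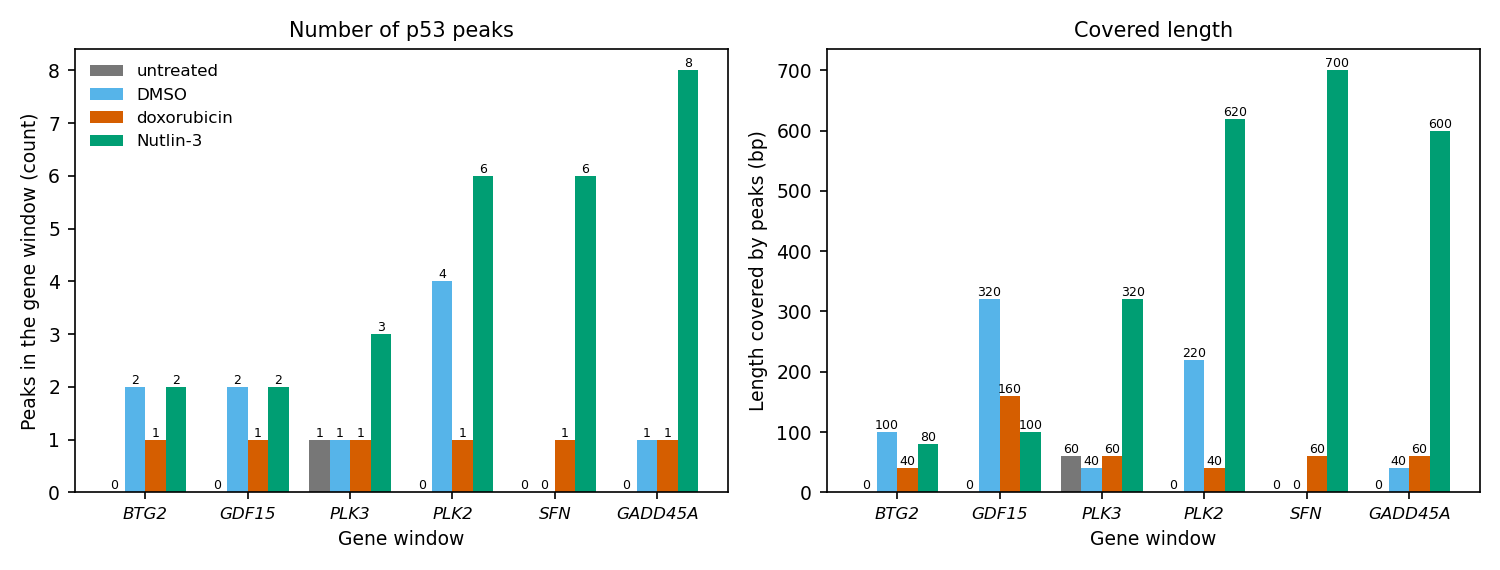
Number of p53 peaks (left, count) and length covered by them (right, bp) in each gene window, with a bar for each of the 4 lists, 1 library each and therefore no error bars. Doxorubicin has 1 peak in every window, while Nutlin-3 ranges from 2 peaks at BTG2 and GDF15 to 8 at GADD45A.

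At BTG2 (chromosome 1, window 201531000 to 201556000), untreated cells had 0 peaks, DMSO 2, doxorubicin 1 and Nutlin-3 2. The peaks fell at 2 places, over which the DMSO peaks spanned 1.14 kb, and both lay within the central part of the window that holds the gene. At the first, which is close to where the gene starts, a DMSO peak from 201541331 to 201541371 and a Nutlin-3 peak from 201541291 to 201541331 touched end to end, each 40 bp wide. The second held peaks of 3 lists. DMSO covered 201542411 to 201542471 (60 bp), doxorubicin 201542431 to 201542471 (40 bp) and Nutlin-3 201542391 to 201542431 (40 bp). The doxorubicin peak lay inside the DMSO peak, while the doxorubicin and Nutlin-3 peaks met at 201542431 without sharing a base. Nutlin-3 thus added no further place to those listed with its solvent. In the deposited peaks, BTG2 and GDF15 were the 2 genes without more Nutlin-3 than DMSO peaks. With peaks of a list within 500 bp joined, PLK2 was another, with 3 DMSO and 2 Nutlin-3 peaks.

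GDF15 (chromosome 19, window 18347000 to 18371000) had 0 untreated, 2 DMSO, 1 doxorubicin and 2 Nutlin-3 peaks. Its main region was nested. The DMSO peak from 18357851 to 18358131 was 280 bp wide, a width that 3.08% of DMSO peaks reached. The doxorubicin peak inside it ran from 18357911 to 18358071 (160 bp, reached by 17.4% of its list). The Nutlin-3 peak inside both ran from 18357971 to 18358011 (40 bp). All 3 had the same midpoint, 10.99 kb from the window edge. With DMSO the covered length over the window was 320 bp, against 160 bp with doxorubicin and 100 bp with Nutlin-3. DMSO also covered more than the other lists at BTG2, with 100 bp against 40 bp for doxorubicin and 80 bp for Nutlin-3. A second Nutlin-3 peak lay from 18357331 to 18357391 (60 bp), and a second DMSO peak from 18352231 to 18352271 (40 bp), 5060 bp from the nearest Nutlin-3 peak inside the window.

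Just outside the GDF15 window lay further peaks, which the membership rule leaves out. Within 15 kb of its edges there were 4 DMSO, 2 doxorubicin and 4 Nutlin-3 peaks, all on the side before the gene, the closest of them a Nutlin-3 peak with its midpoint 0.689 kb beyond the edge. The widest was a DMSO peak of 220 bp from 18346111 to 18346331. The other 5 windows together had 2 peaks within 15 kb of an edge, both from Nutlin-3, at BTG2 and PLK3. The member nearest to an edge was a Nutlin-3 peak at SFN, 2.40 kb inside its window.

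PLK3 (chromosome 1, window 45028000 to 45055000) was the gene with an untreated peak, and had 1 untreated, 1 DMSO, 1 doxorubicin and 3 Nutlin-3 peaks. Near the gene start the DMSO peak from 45038211 to 45038251 (40 bp), the doxorubicin peak from 45038171 to 45038231 (60 bp) and the Nutlin-3 peak from 45038191 to 45038231 (40 bp) overlapped, with 20 bp common to all 3. The untreated peak lay after the gene, 7640 bp from the DMSO peak, from 45045891 to 45045951 (60 bp). It fell between 2 Nutlin-3 peaks and overlapped neither: 45045671 to 45045871 (200 bp), which ended 20 bp before it, and 45046111 to 45046191 (80 bp), which began 160 bp after it. In the RefSeq annotation of GRCh38.p14, BEST4 lies before PLK3, DYNLT4 overlaps it and BTBD19 lies after it, all within 10 kb. The flank peaks of PLK3 all lay after the gene, so they could as well be counted to a neighbour such as BTBD19. At SFN, ZDHHC18 lies before the gene, and the flank peaks on that side could as well be counted to it. LRRC25 lies after GDF15, where that window held no flank peak.

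PLK2 (chromosome 5, window 57775000 to 57802000, gene on the minus strand) had 0 untreated, 4 DMSO, 1 doxorubicin and 6 Nutlin-3 peaks. Most lay in the flank before the gene, which held 3 of the DMSO, the 1 doxorubicin and 5 of the Nutlin-3 peaks. The doxorubicin and a Nutlin-3 peak had identical bounds, 57793831 to 57793871 (40 bp), and a DMSO peak from 57793851 to 57793891 (40 bp) shared 20 bp with them. Nearer the gene, the widest PLK2 peak, from Nutlin-3 (57792431 to 57792711, 280 bp, reached by 3.30% of its list), overlapped a DMSO peak of 60 bp by 40 bp. No doxorubicin peak lay there, the nearest being 1120 bp away. The other Nutlin-3 peaks were 40 to 120 bp wide, and the other DMSO peaks were 40 and 80 bp wide and lay 100 and 120 bp from a Nutlin-3 peak. Among 25 kb tiles, 0.0159% held 4 or more DMSO peaks, as the PLK2 window did.

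At SFN (chromosome 1, window 27052000 to 27074000), neither control list had a peak, and doxorubicin had 1 and Nutlin-3 6. The doxorubicin peak from 27060391 to 27060451 (60 bp) lay wholly inside the widest Nutlin-3 peak, from 27060251 to 27060471 (220 bp, reached by 5.69% of its list). Their midpoints were 8.42 and 8.36 kb from the window edge, in the flank before the gene. Nutlin-3 peaks of 80, 60 and 140 bp followed toward the gene, the last of them at 9.28 kb. A 60 bp peak at 12.4 kb and a 140 bp peak at 19.6 kb from the edge lay after it. The nearest DMSO peak was 282620 bp from any Nutlin-3 peak of the window. SFN was the gene with the longest Nutlin-3 coverage, 700 bp.

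GADD45A (chromosome 1, window 67913000 to 67937000) had 0 untreated, 1 DMSO, 1 doxorubicin and 8 Nutlin-3 peaks, the most for any gene and list. DMSO (67925051 to 67925091, 40 bp), doxorubicin (67925011 to 67925071, 60 bp) and Nutlin-3 (67925031 to 67925071, 40 bp) shared 20 bp in the central part of the window, 12.05 kb from its edge and so within the gene rather than before it. The other 7 Nutlin-3 peaks overlapped no peak of another list and spread over both sides of this place. The widest ran from 67920951 to 67921231 (280 bp) in the flank before the gene, and the remaining 6 were 40 or 60 bp wide. Among these, the peaks from 67923431 to 67923491 and 67923831 to 67923891 lay 10.5 and 10.9 kb from the edge, about where a gene starts. GADD45A had 600 bp under Nutlin-3 peaks, against 40 bp with DMSO and 60 bp with doxorubicin.

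**Figure D2:**
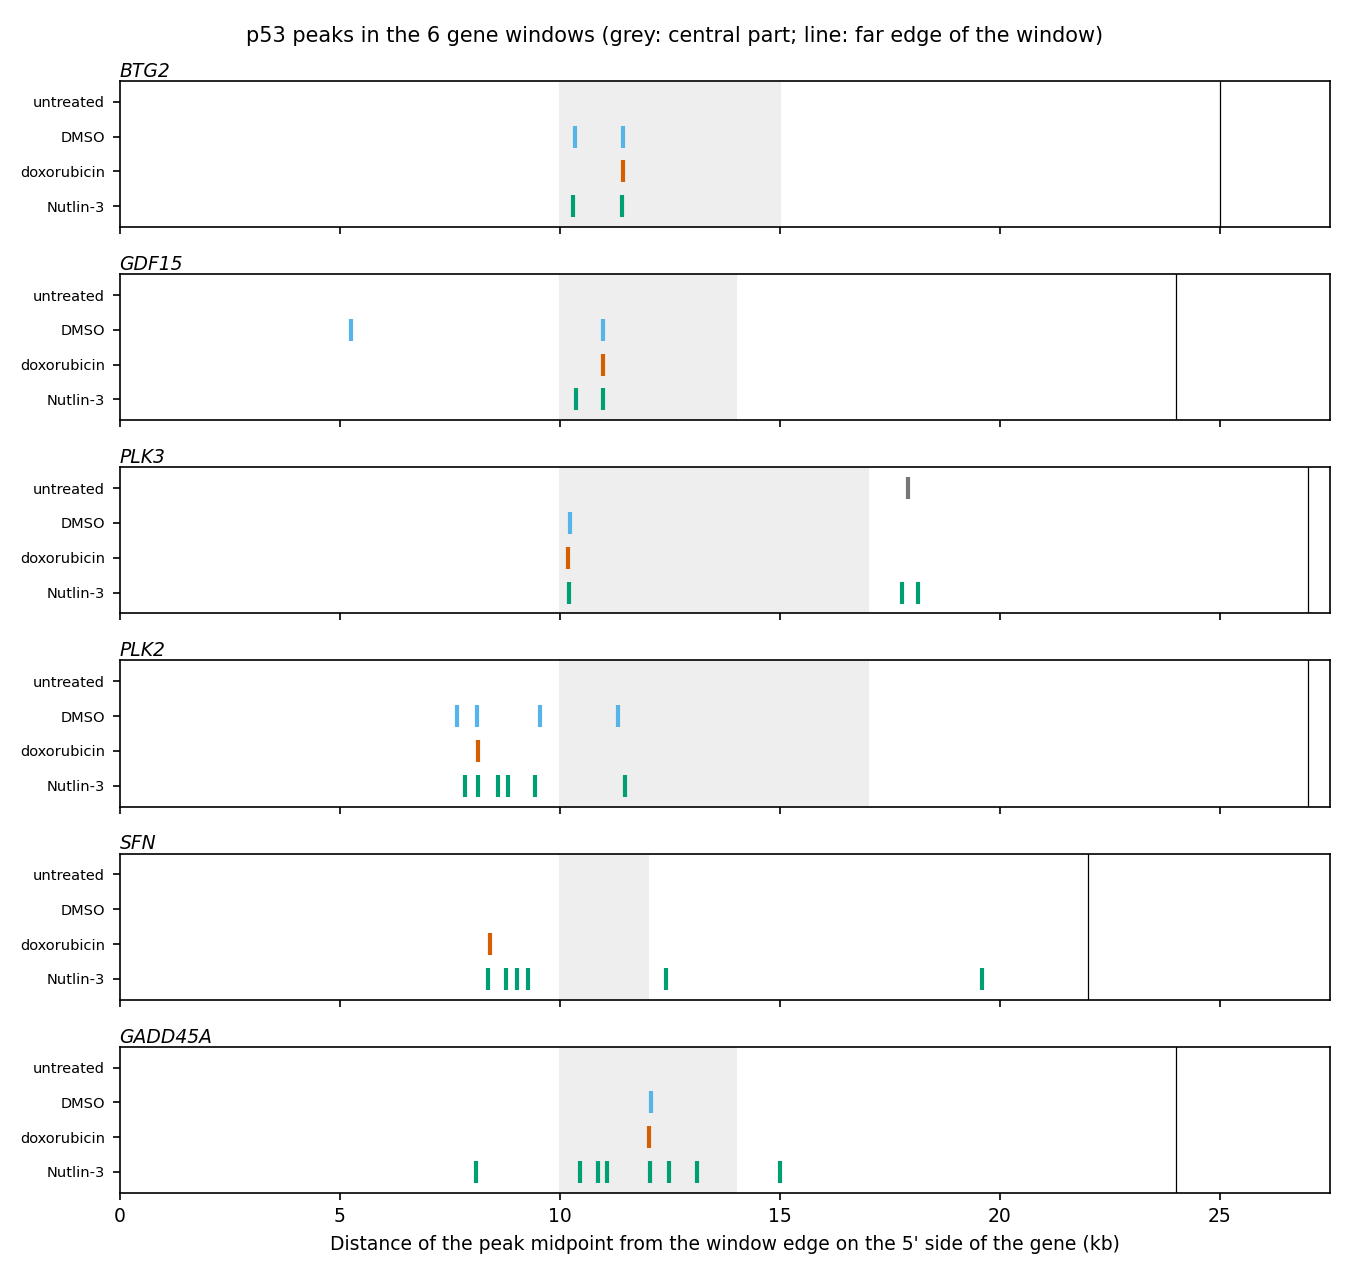
Midpoints of all 44 peaks (ticks) by list in the 6 windows, as the distance in kb from the window edge on the 5' side of the gene; grey marks the central part, which holds the gene, and the thin line the far edge. Peaks of DMSO, doxorubicin and Nutlin-3 line up at 1 place in 5 genes, and at SFN doxorubicin and Nutlin-3 do.

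By position, the 27 Nutlin-3 peaks fell 10 in the flank before the gene, 12 in the central part and 5 in the flank after it. DMSO had 4, 6 and 0, and doxorubicin 2, 4 and 0. The untreated peak lay in the flank after the gene. A gene start lies about 10 to 11 kb from the edge, since windows were rounded to whole kb, so peaks within about 1 kb of that border may belong to either class. GADD45A was read in the plus direction.

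Peaks of the 4 lists joined into 31 regions, counting peaks that overlap or touch. The largest class was Nutlin-3 alone, with 19 regions (61.3%, against 76.0% of all 19877 regions of the series). DMSO, doxorubicin and Nutlin-3 together held 5 (16.1%, against 7.04%), DMSO alone 3 (9.68%, against 2.93%), DMSO with Nutlin-3 2 (6.45%, against 3.90%), doxorubicin with Nutlin-3 1 (3.23%, against 3.99%) and untreated alone 1 (3.23%, against 1.53%). Altogether 8 of the 31 regions held 2 or more lists, against 16.0% of regions in the series, a difference that was not tested. No window held a region of doxorubicin alone, a class that had 700 regions (3.52%) in the series. Each window thus had exactly 1 place where doxorubicin was listed, and Nutlin-3 was listed there too. Sharing with Nutlin-3 was also common in the series. Regions of doxorubicin with Nutlin-3 (794) and of DMSO, doxorubicin and Nutlin-3 (1400) each outnumbered those of doxorubicin alone. With windows widened by 15 kb on each side, GDF15 had 3 doxorubicin peaks and every other gene still 1. Of the 2570 tiles with a doxorubicin peak, 91.3% held exactly 1. Without the 40 bp peaks, 22 regions were left in the windows, 0 of them of DMSO, doxorubicin and Nutlin-3. The place at SFN still held doxorubicin and Nutlin-3, and that at GDF15 held DMSO and doxorubicin. A region at PLK2 held DMSO and Nutlin-3, and all others held 1 list. Joining peaks within 500 bp across lists went the other way. It left 16 regions, 6 of Nutlin-3 alone and 1 of DMSO alone, and the rest held 2 or more lists.

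Peak by peak, sharing was counted from an overlap of 1 bp upward. Doxorubicin peaks were overlapped by DMSO in 5 of 6 cases (83.3%, exact 95% interval 35.9 to 99.6), against 40.6% in the whole list. The exception was SFN. They were overlapped by Nutlin-3 in 5 of 6 cases as well (list 63.5%), the exception being the touching pair at BTG2. DMSO peaks were overlapped by Nutlin-3 in 6 of 10 cases (60%, 26.2 to 87.8; list 70.4%) and by doxorubicin in 5 of 10 (50%, 18.7 to 81.3; list 45.0%). Of the 27 Nutlin-3 peaks, 6 were overlapped by DMSO (22.2%, 8.62 to 42.3; list 10.9%) and 5 by doxorubicin (18.5%, 6.30 to 38.1; list 10.8%). For each of these 6 shares the value of the whole list lay inside the interval of the members. The untreated peak was overlapped by none of the other lists (lists 1.21% by DMSO, 33.5% by doxorubicin, 6.45% by Nutlin-3). Likewise, 0 of the other lists' peaks in the windows were overlapped by it (lists 0.215% of DMSO, 5.54% of doxorubicin and 0.187% of Nutlin-3 peaks). The intervals cover counting error only and treat the peaks of a gene as independent, which they are not.

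**Figure D3:**
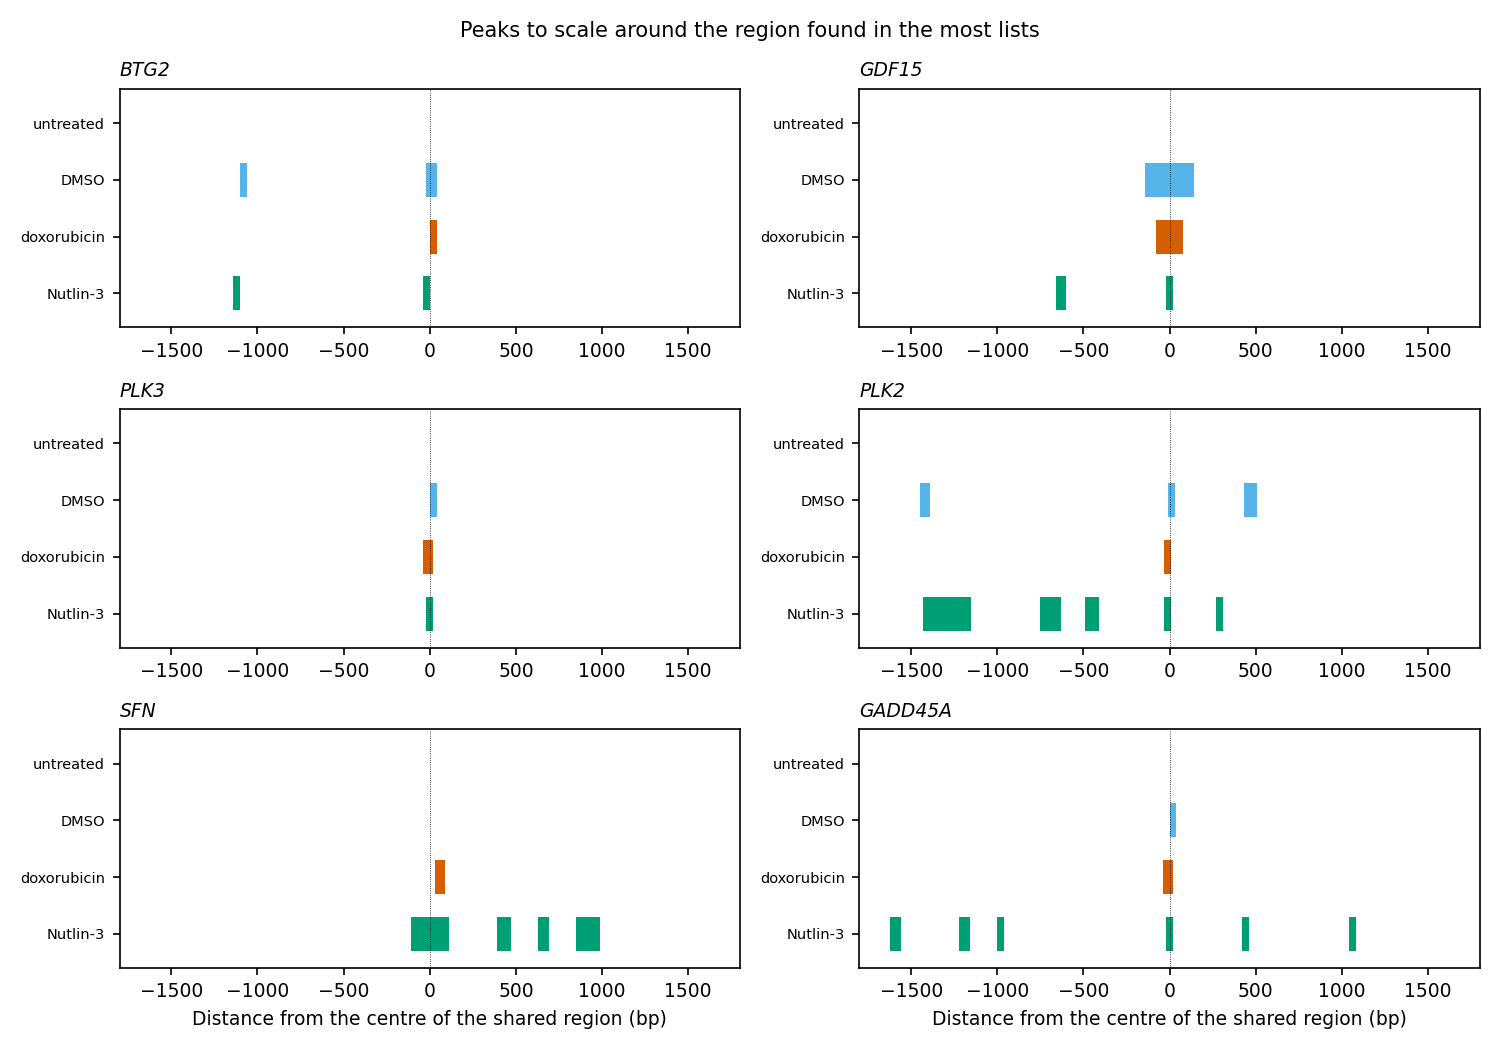
Peaks drawn to scale around the centre of the region found in the most lists, in chromosome direction (PLK2 is read from right to left); the x axis is in bp and each row is a list. The Nutlin-3 bar at the centre is 40 bp wide in all genes except SFN, where it is 220 bp, and at GDF15 it is the narrowest of the 3 bars.

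Where the 3 lists met, the Nutlin-3 peak had the smallest width found in any list. In the 5 regions of DMSO, doxorubicin and Nutlin-3 it was 40 bp in 5 of 5, narrower than the DMSO peak at 2 genes (BTG2 and GDF15) and equal to it at 3. Over the 1400 such regions of the series, 61.8% of the Nutlin-3 peaks were 40 bp wide, against 53.8% of DMSO and 51.7% of doxorubicin peaks. Nutlin-3 was narrower than DMSO in 32.8%, equal in 41.5% and wider in 25.7%. The wide Nutlin-3 peaks of the 6 genes lay at other places. In the whole Nutlin-3 list, 7.57% of peaks were at least 200 bp wide. In the windows, those of at least 200 bp were at PLK3 (200 bp), PLK2 (280 bp), SFN (220 bp) and GADD45A (280 bp). Of these, SFN's held a doxorubicin peak, PLK2's overlapped a DMSO peak and the other 2 overlapped no other list. The 19 peaks of regions with Nutlin-3 alone had a median width of 60 bp, and so had all 15116 of that class. Median widths over the windows were 60 bp for Nutlin-3 and doxorubicin and 40 bp for DMSO, against 60 bp in each whole list.

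PLK2, SFN and GADD45A had 6 or more Nutlin-3 peaks, and 0.0604% of tiles did. Tiles with 8 or more, the number at GADD45A, made up 0.0126%. All 6 windows had at least 2, against 2.73% of tiles. Of the 27 Nutlin-3 peaks, 19 had another within 1000 bp, against 24.1% of the list. They were 6 peaks at GADD45A, 5 at PLK2, 4 at SFN and 2 each at PLK3 and GDF15, with 0 at BTG2. DMSO had 2 such peaks of 10 (list 14.8%), and doxorubicin had 0 of 6 (list 14.6%). When Nutlin-3 peaks within 500 bp were joined, PLK2 had 2 (against 3 for DMSO), SFN 3 and GADD45A 5. Grouping by the lists present put BTG2, GDF15, PLK2 and GADD45A together (DMSO, doxorubicin and Nutlin-3). PLK3 differed by its untreated peak and SFN by the missing DMSO peak.

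**Figure D4:**
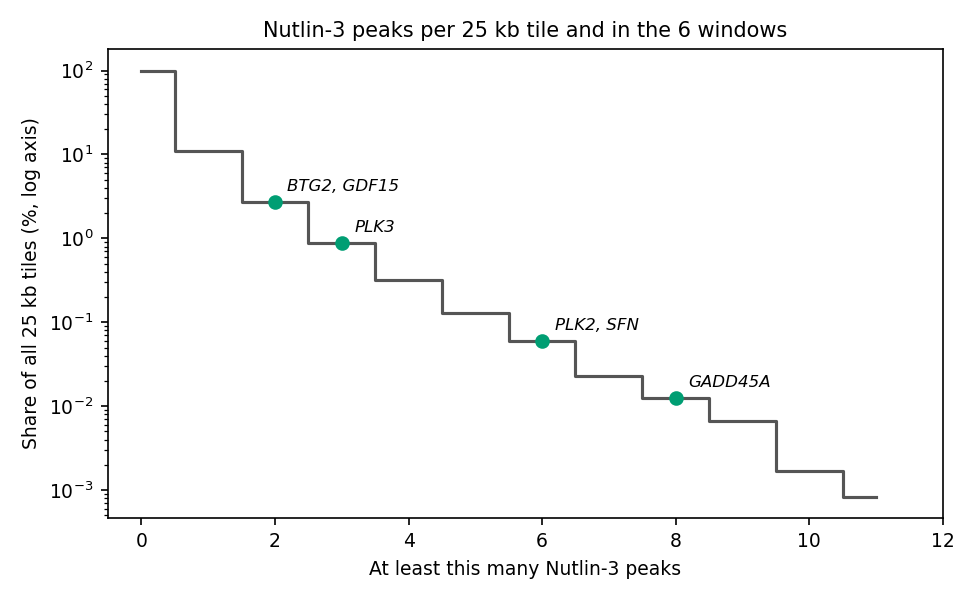
Share of the 119159 tiles of 25 kb (y axis, %, log scale) with at least the number of Nutlin-3 peaks on the x axis (line), with the 6 gene windows placed by their own number (points). BTG2 and GDF15 sit at 2 peaks (2.73% of tiles), PLK3 at 3 (0.893%), PLK2 and SFN at 6 (0.0604%) and GADD45A at 8 (0.0126%).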

How the data were processed

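Binding of p53 was measured by ChIP-seq in U2OS cells under 4 conditions, with 1 ChIP library and 1 input each. The submitters' processing notes name hg18, CASAVA and Bowtie 0.12.2. The peak caller, its threshold and the use of the inputs are not stated there or in the labels. The deposited files, 1 per ChIP library and none pooled, hold 3 columns (chromosome, start, end), with no score or other value per peak. Depth is unknown, and inputs were not analysed here. Whether ends belong to a peak is not stated; they were taken to lie outside it.

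Peaks overlapping the 6 windows were taken with Python 3.11.15 (scipy 1.17.1). Sharing needed at least 1 bp in common; exact binomial 95% intervals are Clopper-Pearson. Regions joined overlapping or touching peaks of the 4 lists. The 25 kb tiles ran from the first to the last peak of each chromosome in any list. The text names all 6 genes and all their peaks. Other p53 targets in cell cycle arrest had been listed for the case that an hg18 annotation was given, and were not analysed here. Members, windows and lists were chosen with earlier results of these data known. Overlap counting was tested on simulated data with 10%, 50% and 90% of 1000 peaks placed on Nutlin-3 peaks, and found those shares. By construction the placed peaks overlapped and the rest did not, so this checks the code and not the choice of overlap rule. Alternatives changed the windows, the smallest width, the merging and the overlap rule.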

Additional observations from a re-analysis of the deposited data

Results flagged for a closer look

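The covered length at 2 genes differed in direction between the treatments and their own controls. At BTG2, doxorubicin minus untreated was 40 bp (40 against 0 bp), whereas the value for Nutlin-3 less its DMSO control was -20 bp (80 against 100 bp). At GDF15, doxorubicin minus untreated was 160 bp (160 against 0 bp), whereas Nutlin-3 less DMSO gave -220 bp (100 against 320 bp). With 1 library per condition this difference was not tested. The BTG2 difference is 1 step of the 20 bp grid, and the untreated list, with 496 peaks, was the shortest. With 0 bp in untreated cells at both genes, doxorubicin minus untreated could not be negative there.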

How the results depend on the processing

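With 1 library per condition, leaving out a replicate could not be run. No paired analysis was possible because no group has more than 1 sample. Of 147 alternative values, 122 stayed within 1.5 times or within the interval, 10 were higher and 15 lower. Causes were not tested beyond what each rule does by construction. The intervals were wide, from 0 to 97.5% for the shares of the 1 untreated peak, so staying inside says little about stability. Every share with the untreated list was 0 and stayed 0 in all settings but the 1000 bp one. These values count as unchanged although they had little room to move. Dropping the 40 bp peaks had the most effect: DMSO kept 4 peaks at 3 genes and Nutlin-3 16 peaks; BTG2 and PLK2 lost their doxorubicin peak and BTG2 its Nutlin-3 peaks. Regions of DMSO, doxorubicin and Nutlin-3 then numbered 0, DMSO with Nutlin-3 1, DMSO with doxorubicin 1 and doxorubicin alone 2. Shares were 25% for DMSO in Nutlin-3, doxorubicin in DMSO and doxorubicin in Nutlin-3, and 6.25% for Nutlin-3 in DMSO and in doxorubicin. Merging a list's peaks within 500 bp left 16 Nutlin-3 peaks (2 at PLK2, where DMSO had 3, 3 at SFN, 5 at GADD45A). Merging across lists at 500 bp left 16 regions, with 6 of Nutlin-3 alone, 1 of DMSO alone, 0 of untreated alone and 1 of untreated with Nutlin-3. Counting peaks within 1000 bp as found gave 90% for DMSO in Nutlin-3, 55.6% for Nutlin-3 in DMSO and in doxorubicin, 100% for doxorubicin in Nutlin-3 and 100% for the untreated peak in Nutlin-3. Counting touching peaks as found, a choice made after the data were seen, gave 100% for doxorubicin in Nutlin-3. Windows widened by 15 kb on each side held 1160 bp under DMSO peaks and 7 regions of DMSO, doxorubicin and Nutlin-3. They held 8 doxorubicin peaks, 3 of them at GDF15. Cutting 5 kb from each side removed 1 Nutlin-3 peak, at SFN. A reciprocal overlap of 50% lowered every share above 0, though none left its wide interval. DMSO in Nutlin-3 and in doxorubicin fell to 30%, and doxorubicin in DMSO and in Nutlin-3 to 50%. Nutlin-3 in DMSO and in doxorubicin fell to 11.1%. Tiles shifted by 12.5 kb gave 0.0571% with 6 or more Nutlin-3 peaks.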
